A study of Rattus norvegicus with 4 samples.

Results

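Superoxide and nitric oxide are made and removed by a small set of enzymes, of which 9 genes are described here: Cybb, Cyba, Ncf1, Ncf4 and Rac2 of the phagocyte NADPH oxidase, the superoxide dismutases Sod1 and Sod2, catalase (Cat) and the inducible nitric oxide synthase Nos2. They were found on the array by the accession printed for each probe, matched to rat RefSeq symbols, and all 9 were measured, by 11 probes in 29 spots, among 16526 measured genes. The cells were NR8383, a rat alveolar macrophage line started from lung lavage that grows partly attached and partly floating, labelled with 20 passages. All 4 samples received zinc iron oxide particles, labelled ZnFe2O4 and NRCWE021, at 17 µg/mL for 4 h, and their RNA was read on 1-colour rat arrays as biological replicates 1 to 4. The design also has cells incubated without the particle, which were not analysed here, so the values say which of these genes were read in exposed cells and how well the replicates fit together, and no gene is said to respond to exposure.

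The phagocyte oxidase carries electrons from NADPH across the membrane of the phagosome to oxygen and so makes superoxide. Its membrane core, cytochrome b558, is a pair of CYBB and CYBA; in a resting cell the cytosolic subunits, among them NCF1 and NCF4, stay apart from it, and they join it together with a RAC GTPase once the phagocyte is stimulated. Superoxide dismutases turn superoxide into hydrogen peroxide, SOD1 mainly in the cytosol with copper and zinc and SOD2 in mitochondria with manganese, and catalase breaks the peroxide down in peroxisomes. NOS2 makes nitric oxide from arginine and is best known as an enzyme that rodent macrophages switch on after bacterial or interferon stimuli.

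RefSeq gives a promoter entry for 6 of the 9 genes (Cybb, Cyba, Ncf1, Sod1, Sod2 and Cat), on the rat build GRCr8. The 250 bases before the start are shown for 1 gene of each enzyme class detected here, the oxidase core, a dismutase and catalase, on the strand of the gene. Capitals mark matches on either strand to 5 short motifs. These are GAGGAA as a core of PU.1 sites, GGGCGG as the GC box, CCAAT as the core of the CCAAT box, TATAAA as the TATA box and TGACNNNGC as a core of the antioxidant response element.
Cybb (chrX:16065066-16065315, minus strand): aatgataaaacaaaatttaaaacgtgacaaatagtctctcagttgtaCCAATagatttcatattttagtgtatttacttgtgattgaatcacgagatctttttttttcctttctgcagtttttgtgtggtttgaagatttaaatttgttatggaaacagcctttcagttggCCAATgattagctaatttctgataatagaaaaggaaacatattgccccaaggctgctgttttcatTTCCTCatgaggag
Sod1 (chr11:42942573-42942822, plus strand): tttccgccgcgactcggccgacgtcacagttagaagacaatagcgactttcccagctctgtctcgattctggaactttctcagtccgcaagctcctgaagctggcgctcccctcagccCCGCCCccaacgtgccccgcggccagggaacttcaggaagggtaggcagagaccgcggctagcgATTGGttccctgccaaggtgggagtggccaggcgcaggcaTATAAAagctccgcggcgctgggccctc
Cat (chr3:110329527-110329776, minus strand): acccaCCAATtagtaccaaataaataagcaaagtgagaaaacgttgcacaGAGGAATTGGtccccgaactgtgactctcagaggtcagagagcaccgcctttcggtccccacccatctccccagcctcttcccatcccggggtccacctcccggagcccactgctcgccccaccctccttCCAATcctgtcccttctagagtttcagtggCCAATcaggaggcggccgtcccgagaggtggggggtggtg
The Cybb window held GAGGAA once, with its first base 14 bases before the start, and CCAAT 2 times. The Sod1 window held 1 GC box, 1 CCAAT box and 1 TATA box, the last of them 28 bases before the start. The Cat window held CCAAT 4 times and GAGGAA once, and 1 of these CCAAT matches overlapped GAGGAA by 1 base. Ncf1 and Sod2 each held the GC box and the antioxidant response core once, and Cyba held the GC box 2 times. Among all 33469 windows of this length, 23.34% held the PU.1 core, 30.47% the GC box, 34.02% the CCAAT box, 12.93% the TATA box and 10.08% the antioxidant response core. A match is a stretch of letters and not a measured binding site.

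The arrays differed in ways that bear on the dimmer of these genes. Of 58717 gene spots, the scanner software marked 41.6% to 47.0% as well above background on replicates 1 and 4, and 70.5% to 89.5% on replicates 2 and 3; a probe or gene so marked is called detected below. Of 10 control RNAs spiked into the samples, the 3 dimmest on average over the 4 arrays were taken. They read 3.72 to 8.11 intensity units on replicate 1 and 3.92 to 5.84 on replicate 4, but 526 to 1214 on replicate 2 and 112 to 276 on replicate 3. On replicate 2 the brightest of them read 10.25 on the log2 scale, above other spike-ins at 9.13, 9.22 and 9.36. On replicate 3 it read 8.11, above others at 7.59, 7.91 and 8.04. Negative control spots stayed low on all arrays, with medians of 3.45, 23.0, 12.9 and 3.34 on replicates 1 to 4. The signal of the brightest of those 3 spike-ins on an array, called the spike-in limit below, is therefore given beside each gene. On replicates 2 and 3 it lies above the 3 dimmest spike-ins of the array itself, so fewer genes pass it there. Its part in any value was not tested.

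Transcripts of 8 of the 9 genes were detected on all 4 arrays, and Nos2 was the exception. Over all measured genes the share was 42.4% on all 4 arrays and 45.9% on replicates 1 and 4, where the count was again 8 of 9. Array by array, 8, 9, 9 and 8 of the 9 genes were detected on replicates 1 to 4, beside 52.2%, 91.5%, 75.3% and 46.2% of all genes. Against the spike-in limit, 6 of 9 genes passed on all 4 arrays (Cyba, Ncf1, Ncf4, Rac2, Sod1 and Sod2), beside 16.4% of all genes. By array, 9, 7, 7 and 8 genes passed it on replicates 1 to 4, beside 62.1%, 20.2%, 27.9% and 58.4% of all genes, and 8 of 9 passed on both replicates 1 and 4, beside 54.8%. Cybb and Cat passed it on replicates 1 and 4 only. Fewer cells with a transcript and less of it per cell cannot be told apart in such bulk samples. With the threshold at 3 SD above the dimmest spike-in, the count was also 6 of 9, beside 18.9% of all genes. Signals below are the processed signal of the scanner, in intensity units after background subtraction, and signals of different probes are not set against each other. For detected probes, the software put the error of a single spot at 10.0% to 13.5% of its signal.

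**Figure D1:**
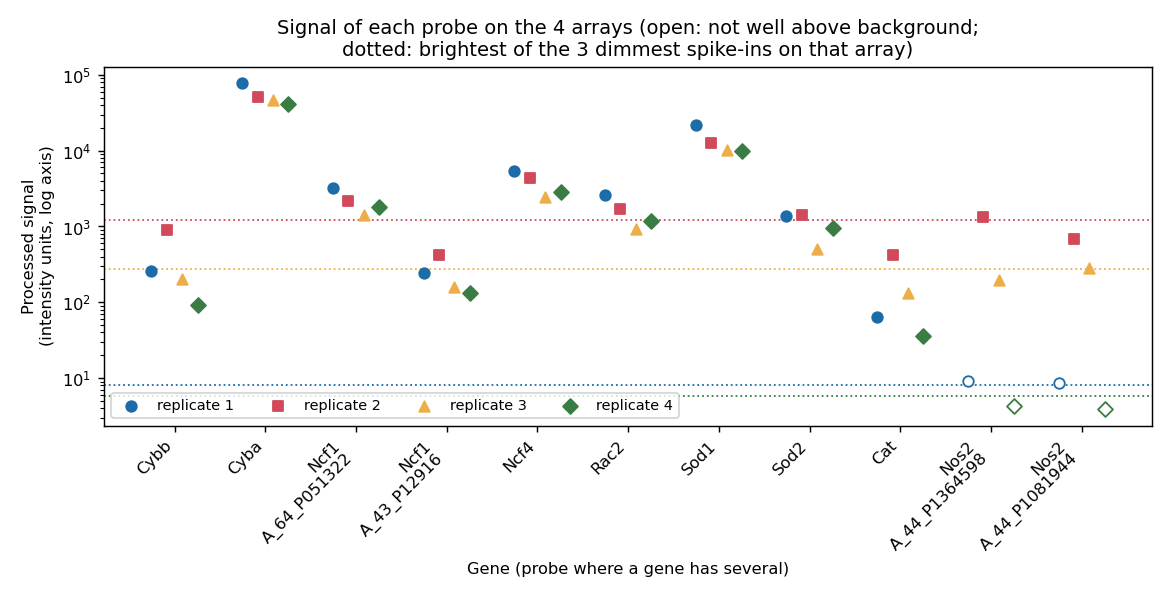
Processed signal (log axis, intensity units) of all 11 probes on the 4 arrays, 1 point per array, open where the probe was not detected; dotted lines are the spike-in limit of each array, at 8.11, 1214, 276 and 5.84 units on replicates 1 to 4. The points of Cyba, Ncf4, Sod1 and the brighter Ncf1 probe lie above all 4 lines, while both Nos2 probes fall to under 10 units on replicates 1 and 4.

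Within the membrane core, Cyba, the smaller chain of the cytochrome that stabilises its partner, was read by 10 spots of 1 probe. Its signal was 78346, 50882, 46126 and 41680 units on replicates 1 to 4. Replicate 1 was highest, and the lowest array was 1.88 times below it. The 9 or 10 spots kept on an array varied by an SD of 0.10 to 0.14 on the log2 scale. One position was left out as an outlier on replicates 1, 3 and 4, where it read 47994, 12562 and 14851 units. On replicate 2 it was kept, at 43002 units, the lowest spot of that array and the only one under the highest of replicate 4, at 46307. Over the 9 spots kept on both arrays, the ratio of replicate 1 to replicate 4 was 1.75 to 2.01, so replicate 1 was higher at each spot. The ratio of replicate 2 to replicate 3 was 0.969 to 1.38 over 9 spots, with replicate 2 higher at 8 of them, and those arrays overlapped.

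Cybb, the catalytic chain that holds the haem and flavin groups, was read by 1 spot, at 256 ± 25.8, 902 ± 93.0, 202 ± 24.0 and 93.3 ± 9.89 units (the software's error) on replicates 1 to 4. The reading on replicate 2 stood above the other arrays, and on replicates 2 and 3 the signal was 0.743 and 0.732 times the spike-in limit. On replicates 1 and 4 it was 31.5 and 15.97 times that limit. The signal on replicate 1 was 2.74 times that on replicate 4, while the median ratio over 6904 genes whose probe was detected on all arrays was 1.95. After each array was set to the 75th percentile of its probes, a log2 scale called the level below, Cybb was higher on replicate 1 by 0.48, inside the 5th to 95th percentile of the 500 genes nearest in mean level (-0.60 to 0.65).

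Of the cytosolic subunits, Ncf4 (p40phox), which binds a phosphoinositide of the phagosome membrane, read 5357, 4407, 2419 and 2860 units. It stood at 3.63 times the spike-in limit on replicate 2, 8.77 times on replicate 3, and 660.2 and 489 times on replicates 1 and 4. Its level differed by -0.07 between replicates 1 and 4. Rac2, the RAC GTPase restricted largely to blood cells, was read by 10 spots of 1 probe with means of 2565, 1679, 927 and 1172 units. Replicate 1 was highest and replicate 3 lowest, the 9 or 10 spots kept on an array varied by an SD of 0.07 to 0.10 on the log2 scale, and no array's kept spots overlapped those of another. A spot left out on replicate 4 as an outlier read 806 units, below the spots of replicate 3. On replicate 2 Rac2 was 1.38 times the spike-in limit.

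**Figure D2:**
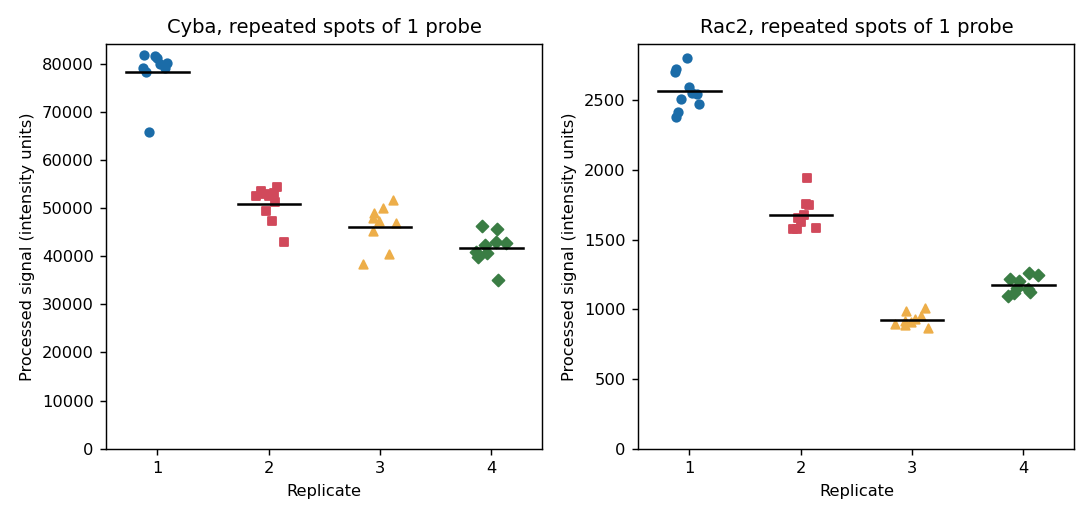
Processed signal (intensity units) of each kept spot of the Cyba and Rac2 probes, 9 or 10 per array, with the geometric mean as a bar. Spots of 1 array share 1 labelled sample. Rac2 spots fall into 4 separate groups, with means of 2565, 1679, 927 and 1172 units. Cyba spots of replicates 2, 3 and 4 overlap, those of replicates 2 and 4 only through 1 spot at 43002 units on replicate 2.

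Ncf1 (p47phox), the organiser that moves to the membrane once phosphorylated, had 2 probes. The brighter (A_64_P051322) read 3219, 2177, 1412 and 1828 units, and the dimmer (A_43_P12916) read 247, 417, 161 and 133 units. The probes ran alike between replicates 1 and 4, with ratios of 1.76 and 1.85. They ran opposite ways between replicates 1 and 2, where the brighter read 1.48 times as high on replicate 1 as on replicate 2 and the dimmer 0.592 times as high. On replicate 2 the dimmer probe lay at 0.344 times the spike-in limit and the brighter at 1.79 times.

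Sod1 read 21828, 12454, 10114 and 9946 units on replicates 1 to 4. Replicate 1 was highest, replicates 3 and 4 differed by less than the software's error, and the signal on replicate 2 was 10.3 times the spike-in limit. Sod2 read 1393 ± 139, 1415 ± 143, 507 ± 52.9 and 947 ± 94.7 units. Replicates 1 and 2 were equal within the software's error, and replicate 3 was lowest, at 1.84 times its spike-in limit. Replicate 1 exceeded replicate 4 by 2.19 times for Sod1 and by 1.47 times for Sod2. As a level, Sod1 was higher on replicate 1 by 0.16 and Sod2 differed by -0.41, just outside the 5th to 95th percentile of the genes nearest to it (-0.39 to 0.53). Sod2 was the only one of the 8 detected genes outside that range. Relative to the median of those nearest genes, the difference was 0.21 for Sod1 and -0.44 for Sod2. Scaling on the 3 brightest spike-ins instead adds 0.60 to this difference for every gene, which makes it 0.76 for Sod1 and 0.18 for Sod2 and leaves their place among other genes as it was.

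Cat, read by 1 spot, gave 63.8 ± 7.19, 423 ± 47.7, 134 ± 18.02 and 35.8 ± 4.82 units on replicates 1 to 4. Replicates 2 and 3 read highest, yet at 0.348 and 0.484 times their spike-in limits, and replicates 1 and 4 read lower, at 7.86 and 6.12 times theirs.

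**Figure D3:**
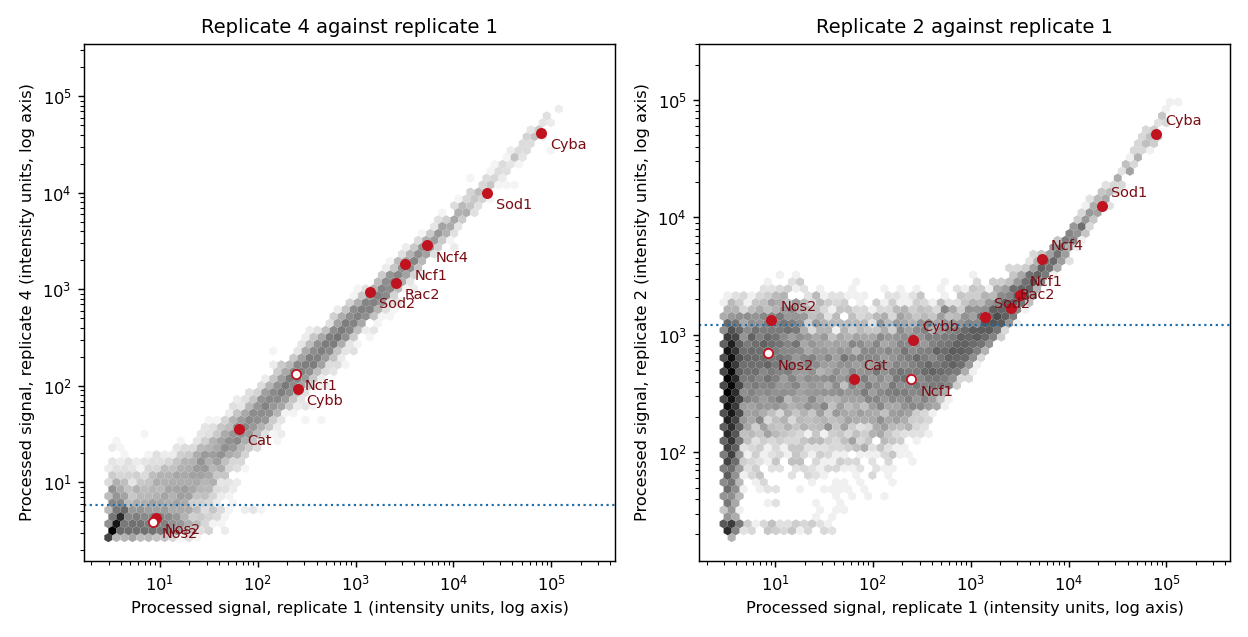
Processed signal of 16526 genes (grey, darker where more genes lie) on replicate 4 and replicate 2 against replicate 1, all axes log and in intensity units, with the 9 genes in red (open red circles, the second probes of Ncf1 and Nos2) and the spike-in limit of the array on the vertical axis as a dotted line. The genes follow 1 line on replicate 4, whereas on replicate 2 Cybb, Cat, the dimmer Ncf1 probe and Nos2 lie among genes spread around or below 1214 units whatever their signal on replicate 1.

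Nos2 had 2 probes, and neither was detected on replicate 1 or 4. The first (A_44_P1364598) read 9.12 ± 3.20 and 4.28 ± 2.76 units there, and the second (A_44_P1081944) 8.49 ± 3.22 and 3.87 ± 2.84. These are 2.64 and 1.28 times the median negative control for the first probe and 2.46 and 1.16 times for the second. On replicates 2 and 3 both probes were detected, at 1328 and 195 units for the first and 693 and 280 for the second. Both were higher on replicate 2 than on replicate 3, by 6.81 times for the first and 2.48 times for the second. Of all genes, 27.7% were detected on exactly this pair of arrays. Against the spike-in limit the first stood at 1.09 and 0.707 times on replicates 2 and 3, and the second at 0.571 and 1.01 times. On replicate 1 they stood at 1.12 and 1.05 times that limit and above the highest negative control, which read 8.05 units, and on replicate 4 at 0.732 and 0.663 times the limit. The scanner's weaker flag, for positive and significant spots, was set for both probes on all 4 arrays, but its share over all genes was not computed.

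Across the 8 detected genes, replicate 1 was brighter than replicate 4 for 8 of 8, by 1.47 to 2.74 times with a median of 1.88, against a median of 1.95 for all 6904 genes. As levels, the absolute differences between those arrays were 0.06 to 0.48 with a median of 0.16, beside 0.20 for all genes. The mean levels over n = 4 arrays were 0.63 ± 0.78 (SD) for Cybb, 8.31 ± 1.89 for Cyba, 3.64 ± 1.95 for Ncf1, 4.43 ± 1.81 for Ncf4 and 3.15 ± 1.93 for Rac2. They were 6.28 ± 1.95 for Sod1, 2.57 ± 1.87 for Sod2 and -0.64 ± 0.29 for Cat. The small SD of Cat belongs to this scaling: with spike-in scaling it was 1.67, and that of Cyba went from 1.89 to 0.32. Replicate 2 had the lowest level of 7 of these genes, all but Cybb, and the same count over all genes was not made. The 75th percentile subtracted on replicate 2 was 851 units, under the spike-in limit of 1214 there. In signal, the lowest array was replicate 3 for 4 of the 9 genes and replicate 4 for 5. Limma's F test of each variance against genes of like level called 0 of the 8 genes, with adjusted p of 0.865 to 0.995, and 0 of 6904 genes in all (0%), while 315 of all genes and 0 of the 8 had an unadjusted p under 0.05. Levels over all 6904 genes differed by a median of 3.00 between replicates 1 and 2 and 2.09 between replicates 1 and 3. Such array-wide differences enter each gene's variance and the prior alike, so this test had little room to call a single gene. No difference in spread from other genes could therefore be shown with 4 arrays under this scaling. With the percentile of probes detected on all arrays, the median SD of all genes was 0.43 instead of 1.55, and the test again called 0.

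**Figure D4:**
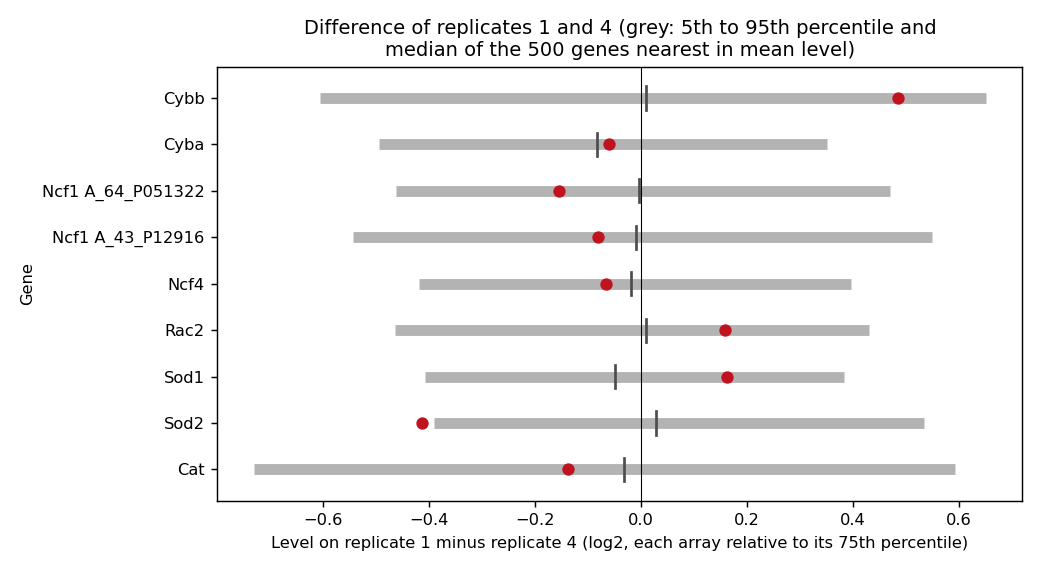
Level on replicate 1 minus that on replicate 4 (log2, each array relative to its 75th percentile) for the 9 probes of the 8 detected genes (red), with the 5th to 95th percentile and the median of the 500 genes nearest in mean level in grey. Cybb lies highest at 0.48 and Sod2 lowest at -0.41, the latter at the edge of its grey range.

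Other genes of these pathways were listed with earlier results of the series known, and are given as counts. Of 14 measured genes that assemble, regulate or activate the oxidase, 10 were detected on replicates 1 and 4, beside 45.9% of all genes. On all 4 arrays 9 were detected, beside 42.4%. Rac1, the widely expressed relative of Rac2, read 952, 831, 239 and 266 units. Cybc1, a chaperone of the cytochrome, read 1176, 1100, 806 and 606 units. Rap1a, a small GTPase that copurifies with the cytochrome, read 111, 467, 122 and 47.0 units, and Arhgdib, which holds RAC in the cytosol, read 16129, 8488, 7724 and 5985. Rac1, Cybc1 and Arhgdib were highest on replicate 1, and of these only Arhgdib passed the spike-in limit on all 4 arrays. Over the list, 3 of 14 passed it on all 4, beside the 16.4% of all genes given above. The proton channel gene Hvcn1 had no probe that could be named and was not analysed here.

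Of 11 measured genes of other oxidases and peroxidases, 2 were detected on replicates 1 and 4, Xdh and Duoxa2, beside 45.9% of all genes. Xdh, xanthine dehydrogenase, a further source of superoxide, read 472, 699, 349 and 191 units. The oxidases Nox1, Nox4, Duox1 and Duox2 read 3.44 to 7.89 units on replicate 1 and 3.55 to 4.32 on replicate 4, and none of them was detected there. None of the 11 genes passed the spike-in limit on all 4 arrays (0 of 11), beside 16.4% of all genes. Mpo was not analysed here. Duoxa2, a maturation factor of the DUOX2 oxidase, lies outside the genes chosen for naming and is named because the count was small.

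Among partners of the dismutases and catalase, 7 of 11 were detected on all 4 arrays, beside 42.4% of all genes. The spike-in limit was passed on all 4 by 2 of 11, near the 16.4% of all genes. Ccs, the chaperone that loads copper into SOD1, read 1885, 2073, 975 and 989 units, and Atox1, another copper chaperone, read 3915, 2537, 1876 and 2069. Pex5, the receptor that brings catalase and other proteins into peroxisomes, read 353, 340, 227 and 123 units. The extracellular dismutase Sod3 read 12.4 and 3.97 units on replicates 1 and 4 and was not detected on either, and the copper importer gene Slc31a1 read 4.50 and 3.16 and was not either.

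Genes of nitric oxide synthesis and arginine use were detected on all 4 arrays for 12 of 19 measured, beside 42.4% of all genes. The spike-in limit was passed on all 4 by 6 of 19, beside 16.4%. Gch1, the first enzyme in making the cofactor tetrahydrobiopterin, read 2050, 2185, 1259 and 1211 units. Arg1, an arginase that uses the same substrate as NOS2, read 344, 887, 356 and 400.5 units, and the arginine transporter gene Slc7a2 read 56.1, 282, 72.7 and 32.7. Nos1, Nos3 and Ass1, which makes the arginine precursor argininosuccinate, were not detected on replicates 1 and 4, where they read 2.82 to 4.78 units. So Gch1, Slc7a2 and Arg1 were detected on replicates 1 and 4, where Nos2 and Ass1 were not.

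Of 12 measured transcription factors known to act on these genes, 10 were detected on replicates 1 and 4, beside 45.9% of all genes. On all 4 arrays 9 were detected, beside 42.4%, and 4 passed the spike-in limit, beside 16.4%. Spi1, which encodes PU.1, read 1696, 2893, 1094 and 653 units. Irf8 read 4.28 and 4.85 units on replicates 1 and 4 and was not detected on either. Irf1, an interferon-induced factor that acts on Nos2, was detected on all 4 arrays, with a mean level of 1.48 ± 1.78, and so were the NF-kB subunit gene Rela and Cebpb, at 1.79 ± 1.48 and 5.17 ± 1.87. On replicate 2 Irf1 and Rela read 515 and 861 units, under the spike-in limit of 1214, whereas Cebpb passed it on all 4 arrays.

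The cells matched a macrophage label by some markers and not by others. The share of all genes detected on both replicates 1 and 4, 45.9%, stands beside each count that follows. Of 10 measured alveolar macrophage markers 7 were detected on replicates 1 and 4, among them Cd68 and the lysozyme gene Lyz2, while Marco was not. Neutrophils also carry the oxidase, and 2 of 10 neutrophil and mast cell markers were detected on both arrays, S100a8 at 25.9 and 24.8 units and Camp at 247 and 121, while S100a9 and Elane were not. Summed over the list, those markers read 310 units on replicate 1 and 184 on replicate 4, and 4693 and 1053 on replicates 2 and 3. The counts were 1 of 9 for epithelial markers (Foxj1), 1 of 7 for fibroblast markers (Dcn) and 3 of 8 for T and NK cell markers (Cd4, Lck and Nkg7), named here after their values were seen. None of these 4 lists had a gene over the spike-in limit on all 4 arrays, and 2 of 10 macrophage markers did, a share near the 16.4% of all genes. The macrophage markers summed to 86437, 61046, 53438 and 47960 units on replicates 1 to 4, of which Lyz2 alone gave 74992, 49272, 44153 and 41096. Sums of different lists come from different probes and are not set against each other. The part of other cells in the signals was not tested.

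**Figure D5:**
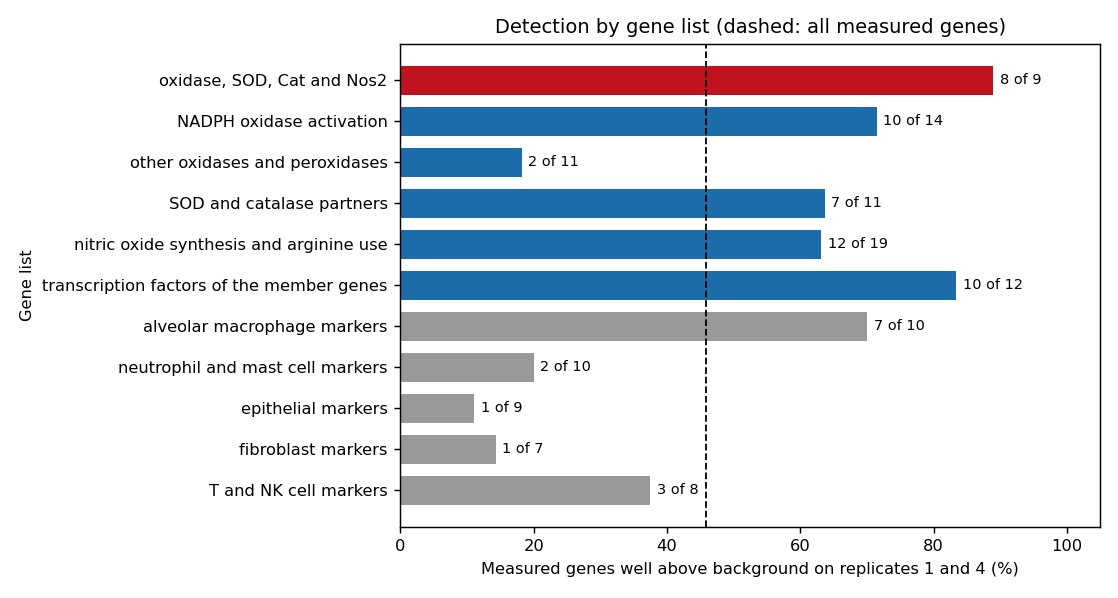
Share of measured genes detected on replicates 1 and 4, in percent, for the 9 genes (red), 5 pathway lists (blue) and 5 marker lists (grey), with the count beside each bar. The dashed line marks the 45.9% of all 16526 measured genes; the 9 genes stand at 8 of 9 and other oxidases and peroxidases at 2 of 11.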

How the data were processed

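RNA of 4 exposed NR8383 samples, all in 1 group with replicate numbers from the labels, was read on 4 arrays of 1 slide. The authors deposited intensity values from Agilent Feature Extraction 11.0.1.1 (file headers and the submitters' processing notes), whose processed signal is background-subtracted and detrended over the slide area; the headers record no step across arrays. The deposited value table equals the median spot intensity on every one of 62976 spots per array, with column medians of 54, 604.5, 219 and 46, and was not used. Spots flagged as non-uniform or population outliers were left out and spots of a probe averaged as log2 values; a probe counted as well above background when over 0.5 of its kept spots were flagged so. Of 45598 probes, 21109 were named by unversioned accession (RefSeq, GRCr8), and 213 lacking a usable spot on some array were left out. Levels are log2 values minus the array's 75th percentile. Where a gene had several probes, the one highest on average gave its level, and any detected probe made the gene detected.

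Spread was tested with limma 3.58.1, an F test against a prior with a trend on level, with Benjamini-Hochberg adjustment over all genes at a threshold of 0.05. The test was tried on simulated data with independent noise for each gene and array. Those data lacked the array-wide differences seen here, so they do not show how the test behaves with them. Members and lists were chosen with earlier results of these data known. All 9 members, the first 6 genes of each pathway list and the first 4 of each marker list were to be named. A few listed genes are not reported here by name. The replicates are called biological in the series' design, and nothing says more of their origin. Alternatives were other flags, spike-in thresholds, scalings, normexp with an offset of 50, all probes or spots, and fewer replicates. The 5 pathway and 5 marker lists are counts only. No control sample was analysed here, and the number of arrays limits the precision. GRCr8 coordinates are given for promoters only, since the array design names the older build rn4.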

Additional observations from a re-analysis of the deposited data

How the results depend on the processing

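The count of 8 genes well above background on all 4 arrays ran from 6 with either spike-in threshold to 9 with the scanner's weaker flag for positive and significant spots, which also passed Nos2. The share of all genes passing that weaker flag was not computed, so the 9 cannot be set against it. It was 8 without each replicate in turn. The 39 of 67 measured pathway genes fell to 18 at 3 SD above the dimmest spike-in and to 15 at the spike-in limit, a threshold chosen after seeing the data. Over all genes the shares at these 3 thresholds were 42.4%, 18.9% and 16.4%. The median level of the 8 genes, 3.40, was 0.57 relative to the percentile of probes detected on all arrays. Relative to the 3 brightest spike-ins it was -2.47, each measured from another zero. Without each replicate in turn it was 2.85 to 4.14. The range was wider by pairs of arrays, at 5.02 on replicates 1 and 4 alone and 1.77 on replicates 2 and 3 alone. The median difference of replicates 1 and 4, -0.06, was 0.53 with spike-in scaling, which adds 0.60 to every gene alike by construction, and 0.41 with normexp. Normexp took the median of all 6904 genes from -0.01 to 0.28. The median of the 8 genes minus that of all genes went from -0.05 to 0.13. Relative to the 500 genes nearest in level, a comparison chosen after seeing the data, the median difference under the main scaling was -0.01. The test of spread called 0 of the 8 genes under every scaling and prior and without each replicate; over all genes it called 2 without replicate 2 and 0 otherwise. No paired analysis was possible because all samples belong to 1 group. Signals under the spike-in limit on replicates 2 and 3 limit what can be read for Cybb and Cat, and for Nos2 1 of its 2 probes was under it on each of those arrays.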
